A study of Rattus norvegicus with 7 samples.

Results

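The cDNA clones described here were lowered in contused rat cortex. They are the clones that the study listed as downregulated after cerebral cortical contusion, under any heading, apart from 8 of 68 listed clones that were left out, which leaves 60. Of these, 56 were listed for 1 day post injury (dpi) and 4 for 4 dpi. The clone IDs led to 56 of the 6240 features of the array table, 4 IDs had no match there (neuroserpin, cystatin C, D-dopachrome tautomerase and N-myristoyltransferase 2), and the feature of aldolase C held no value. Values were found for 55 clones, 51 listed for 1 dpi and 4 for 4 dpi.

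A weight was dropped on the exposed dura of male Sprague Dawley rats, and the impact area with the cortex around it was compared with the same area of the uninjured side of the same animal, with 3 animals at 1 dpi and 4 at 4 dpi. Both sides came from an anaesthetised animal with a craniotomy and a contusion, so the contralateral cortex is the reference of an injured brain, and no sham-operated animal was on an array. Each animal had 1 array of 2 colours, and the deposited value is the log2 ratio of ipsilateral to contralateral cortex, where 0 means equal signal on both sides. Ipsilateral RNA was labelled with Cy5 on 1 dpi replicates 1 and 2 and on 4 dpi replicates 2 and 3, and with Cy3 on the other arrays.

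The cortex around a contusion loses neurons within hours to days, while microglia and blood-borne phagocytes gather and astrocytes react. Astrocytes and vessel cells carry much of the lipid transport, peptide uptake, detoxification and amino acid metabolism of the brain, and neurons carry its synaptic receptors and kinases. A ratio measured in bulk tissue cannot tell fewer cells of a type from less RNA per cell.

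The 1 dpi values of the clones listed for 1 dpi chose them, and are given as a description. All 51 had a mean below 0 at 1 dpi, from -2.24 to -0.66, with a median of -0.88. A feature was called lower at a mean log2 ratio below -0.7, a fold of about 1.6, and an adjusted p of 0.02 or less by limma with Benjamini-Hochberg adjustment over all features tested. This call covered 43 of the 51 clones and 1.51% of the 4952 features tested at 1 dpi. The adjusted p without the limit was passed by 51 of 51 and by 2.75% of all features. Both counts restate the listing. The 4 listed clones nearest to 0 were lipoprotein lipase at -0.66, apolipoprotein E at -0.68, 2,4-dienoyl-CoA reductase at -0.68 and C10 at -0.68. Just outside the limit, 53 features in neither list passed the adjusted p with a mean nearer to 0, the closest 4 of them at -0.699, -0.699, -0.696 and -0.694. Of the 75 features called, 43 were clones described here, 5 belonged to the 8 left out and 27 were in neither list. Without 1 dpi replicate 2, 27 clones were called in place of 43.

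At 4 dpi, in other animals, the ratios of the clones listed for 1 dpi lay much nearer to 0. The test needed 3 or 4 values per clone, which 37 of the 51 clones had, 72.5% against 64.4% of all features tested at 1 dpi. Their median 4 dpi mean was -0.20, against -0.84 for the same 37 clones at 1 dpi and -0.0097 for all 3191 features tested at 4 dpi. It ran from -0.29 to -0.098 when single arrays of 4 dpi were left out. The mean of every one of the 37 was nearer to 0 at 4 dpi than at 1 dpi. The clones were chosen by low 1 dpi values and not listed at 4 dpi, which partly sets means nearer to 0 there. At 4 dpi 11 of the 37 had a mean at or above 0, 13 lay between 0 and -0.35, 13 lay between -0.35 and -0.7, and 0 lay below -0.7. Among all features tested, 48% had a mean at or above 0, and 6.17% had a mean of -0.35 or lower, against 35.1% of these clones.

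None of the 37 clones was called lower at 4 dpi, where 0.376% of all features were called. The listing for 1 dpi alone already means that the study did not list a clone at 4 dpi, so this 0 is partly set by the list. Without 4 dpi replicate 1, 1 clone was called, annexin A7. Without the limit on the mean, 4 of the 37 clones, 10.8%, were lower at an adjusted p of 0.02 or less by limma, against 2.10% of all features, and 0 were higher, against 4.73%. At an unadjusted p under 0.05, 16 were lower (43.2%, against 13.4% of all features) and 2 were higher (5.41%, against 15.8%). Significance analysis of microarrays (SAM) gave 11 clones lower and 1 higher at a q-value of 0.02 or less, with 5.30% of all features lower and 8.87% higher. SAM with the limit also called 0 of the 37. All values at 4 dpi were below 0 in 14 of the 37 clones, 37.8%, against 21.1% of all features. The lower calls without the limit depended on single arrays: without 4 dpi replicate 2 or without replicate 4 none of the 37 clones passed, without replicate 3 2 did, and without replicate 1 7 did.

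**Figure D1:**
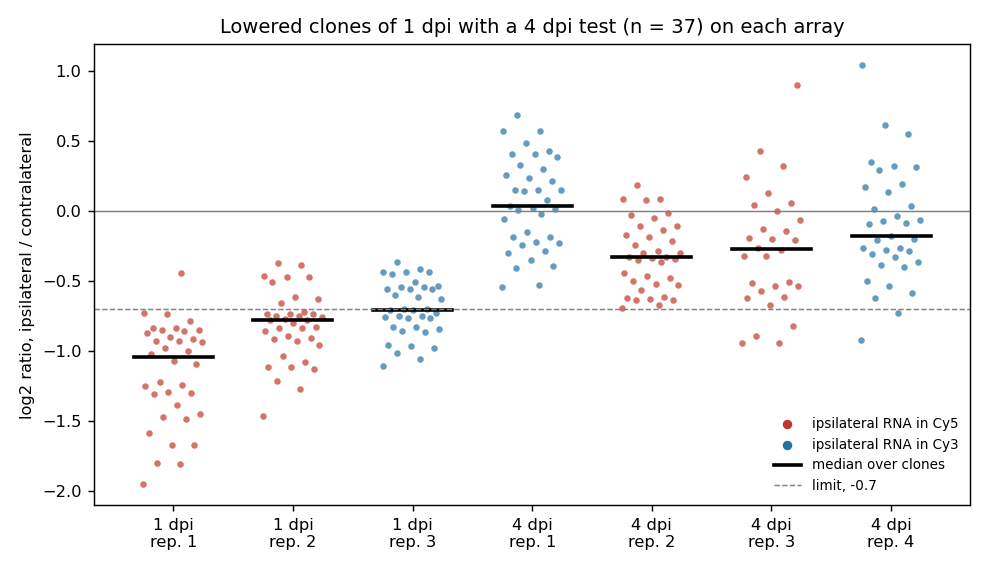
Log2 ratio of ipsilateral to contralateral cortex (vertical axis) on each of the 7 arrays (horizontal axis) for the 37 clones listed for 1 dpi that were tested at 4 dpi. Points are clones, coloured by the dye of the ipsilateral RNA, black bars are medians over the clones and the dashed line is the limit of -0.7. The 3 medians of 1 dpi lie between -1.05 and -0.70, and the 4 medians of 4 dpi between -0.33 and 0.038.

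These values went with the dye orientation, but arrays of opposite orientation came from different animals, so dye and animal cannot be told apart. Of the 46 clones listed for 1 dpi with 3 values there, 36 were lowest on replicate 1. At 1 dpi the median of the 37 clones was -1.05 and -0.78 on the arrays with ipsilateral RNA in Cy5 and -0.70 on the array with it in Cy3. At 4 dpi it was -0.33 and -0.27 on the Cy5 arrays of replicates 2 and 3, and 0.038 and -0.18 on the Cy3 arrays of replicates 1 and 4. The medians of all features lay between -0.0045 and 0.0088 on the 7 arrays. The mean over the Cy5 arrays of 4 dpi was below the mean over the Cy3 arrays in 32 of the 37 clones, 86.5%, with a median difference of -0.27, while the share among all features was 52.6% with a median difference of -0.014. With a dye term in the limma fit the median 4 dpi mean of the clones was -0.25, 10 of the 37 were lower without the limit (4.17% of all features), and 0 were called with it. At 1 dpi, where 2 of 3 arrays had Cy5 on the ipsilateral side, the mean over the Cy5 arrays was below the Cy3 array in 38 of the 49 clones with both dyes, 77.6%, with a median difference of -0.37, against 53% and -0.026 for all features. With the dye term, 37 of these 49 clones were called lower at 1 dpi, in place of 43 of 51, where 1.44% of all features were, and 49 of 49 were lower without the limit (5.06% of all features). These counts at 1 dpi restate the listing.

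The other 14 clones listed for 1 dpi had a value on 2 arrays (8 clones) or on 1 array (6 clones) of 4 dpi, and are given without a test. A missing value is a spot that was absent or too weak against its background. All 14 had a value on 4 dpi replicate 2, where their median was -0.34, close to the -0.33 of the 37 tested clones on that array. On that array 4 of the 14 lay below -0.7, against 0 of the 37. Their median at 1 dpi, -1.18, was lower than the -0.84 of the tested clones. The clone with the lowest mean of all at 1 dpi, putative N-acetyltransferase CML3 (RGIAV89), was among them. Its log2 ratios were -2.28, -2.46 and -1.98 at 1 dpi, and -0.37 and -0.82 on 4 dpi replicates 1 and 2.

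**Figure D2:**
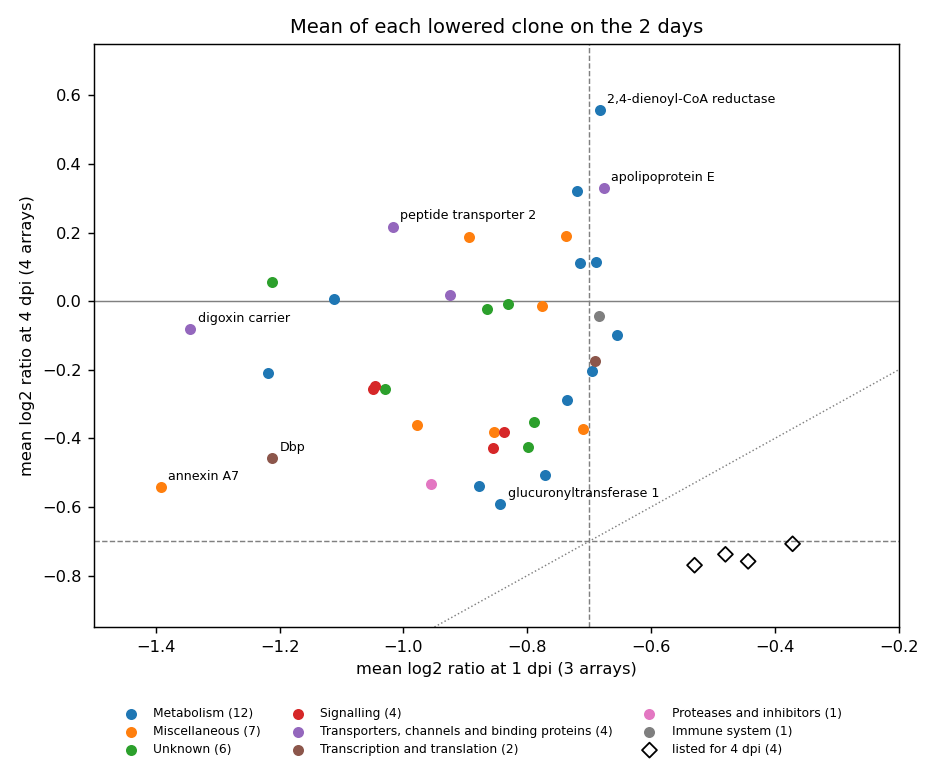
Mean log2 ratio at 4 dpi (vertical axis) against the mean at 1 dpi (horizontal axis) for the 41 clones tested at 4 dpi, coloured by the heading in the study's list, with open diamonds for the 4 clones listed for 4 dpi. Dashed lines mark -0.7 on each axis and the dotted line equal values, and all 37 clones listed for 1 dpi lie above the dotted line.

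Among the enzymes of fatty acid and lipid metabolism, 4 of 4 measured clones had been near the limit at 1 dpi, and their 4 dpi means ran from -0.20 to 0.56, with 2 above 0. 2,4-dienoyl-CoA reductase (RGIAA64), which prepares unsaturated fatty acids for beta-oxidation, had log2 ratios of -0.84, -0.80 and -0.41 at 1 dpi and 0.57, 0.18, 0.43 and 1.04 at 4 dpi. All 4 animals of 4 dpi were above 0 and all 3 of 1 dpi below, and the 4 dpi mean of 0.56 ± 0.36 (SD, n = 4) was the highest of the 37 clones. It missed the threshold by limma (adjusted p = 0.0246), passed it with a dye term (adjusted p = 0.00441) and with arrays scaled to the same spread (adjusted p = 0.0163), and was the clone that SAM gave as higher. It missed the threshold with centred arrays and with values on 2 of 4 arrays (adjusted p = 0.0256 and 0.0317) and without each array in turn (adjusted p from 0.0224 to 0.102), and the mean was 0.40 without replicate 4. The peroxisomal enoyl hydratase-like protein (RGIAE70), named for another step of fatty acid breakdown, had log2 ratios of -0.79, -0.77 and -0.60 at 1 dpi and 0.41, -0.05, 0.32 and 0.61 at 4 dpi. Its 4 dpi mean was 0.32 ± 0.28 (SD, n = 4), with an adjusted p of 0.0984 by limma. Its lowest array of 4 dpi was still above its highest of 1 dpi.

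Lipoprotein lipase (RGIAA23), which frees fatty acids from circulating triglycerides, had a 4 dpi mean of -0.10 ± 0.42 (SD, n = 4). Its values split by dye, with 0.22 and 0.29 on the Cy3 arrays and -0.34 and -0.57 on the Cy5 arrays. The mitochondrial carnitine/acylcarnitine carrier (RNACB26, an expressed sequence tag), which brings fatty acids into mitochondria, had -0.20 ± 0.26 (SD, n = 3) and no value above 0. Neither passed at 4 dpi (adjusted p = 0.692 and 0.317 by limma). In energy and amino acid metabolism, an isocitrate dehydrogenase tag (RNACC94), an enzyme that turns isocitrate into 2-oxoglutarate, went from a 1 dpi mean of -0.69 to 0.12 ± 0.25 (SD, n = 4) at 4 dpi. Cystathionine beta synthase (RNABU17), which turns homocysteine into cystathionine and is made mainly by astrocytes in brain, had log2 ratios of -1.68, -1.12 and -0.86 at 1 dpi and 0.025, -0.36 and -0.29 on 3 arrays of 4 dpi. Lysine-ketoglutarate reductase (RGIAQ87), the first enzyme of lysine breakdown, had -0.93 and -1.61 on 2 arrays of 1 dpi and 0.23 and -0.32 on 2 arrays of 4 dpi. In these 3 clones the highest value of 1 dpi, the day that chose them, lay below the lowest of 4 dpi, against 10.9% of all features tested on both days, and lysine-ketoglutarate reductase had only 2 values a day.

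The detoxification and redox clones had 4 dpi means from -0.51 to 0.11, and 1 of the 4 tested was lower without the limit, where 2.10% of all features were. Glutathione S-transferases couple glutathione to reactive compounds. Glutathione S-transferase mu type 3 (RNABI84) had log2 ratios of -1.09, -0.39 and -0.83 at 1 dpi and -0.29, -0.67, -0.53 and -0.53 at 4 dpi. Its 4 dpi mean of -0.51 ± 0.16 (SD, n = 4) was lower by limma without the limit (adjusted p = 0.00989), and the ranges of the days overlapped. The theta type tag (RNACA56) had -1.59, -0.74 and -1.01 at 1 dpi and 0.15, -0.11, -0.21 and 0.19 at 4 dpi, a 4 dpi mean of 0.0069 ± 0.20 (SD, n = 4) with values on both sides of 0. The alpha type (RNABK10) lay between them at -0.29 ± 0.02 (SD, n = 3), with 3 almost equal arrays. The difference between the mu and theta types at 4 dpi was wider than the spread over animals in either, as every array of the mu type lay below every array of the theta type, but it was not tested.

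1-Cys peroxiredoxin (RNABM65), which removes peroxides, had a 4 dpi mean of 0.11 ± 0.42 (SD, n = 4). Its 4 values split by dye, with 0.38 and 0.55 on the Cy3 arrays and -0.17 and -0.32 on the Cy5 arrays. Epoxide hydrolase (RGIAI20), which opens reactive epoxides, had -1.36, -0.85 and -0.54 at 1 dpi and 0.27 and -0.14 on 2 arrays of 4 dpi.

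A glycosyltransferase, a folding enzyme and a cap binding protein had the 4 dpi means -0.59, -0.54 and -0.53, all 3 below 0 on every array (21.1% of all features) and lower by limma without the limit (2.10%). Beta-1,3-glucuronyltransferase 1 (RGIBB76), which makes the HNK-1 carbohydrate on neural adhesion proteins, had the most even values of 1 dpi, -0.85, -0.84 and -0.85, and -0.40, -0.64, -0.94 and -0.39 at 4 dpi. Its 4 dpi mean was -0.59 ± 0.26 (SD, n = 4), the lowest of the 37 clones (adjusted p = 0.0105 by limma), and replicate 3 of 4 dpi was below all 3 arrays of 1 dpi. Protein disulfide isomerase A3 (RGIAU04), a folding enzyme of glycoproteins in the endoplasmic reticulum, had -1.02, -0.65 and -0.96 at 1 dpi and -0.23, -0.53, -0.82 and -0.58 at 4 dpi, with a 4 dpi mean of -0.54 ± 0.25 (SD, n = 4) (adjusted p = 0.0134 by limma).

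Nuclear cap binding protein subunit 2 (RNABQ35, a tag listed among proteases and inhibitors, although the named protein binds the cap of new transcripts) had -1.25, -0.92 and -0.70 at 1 dpi and -0.54, -0.69, -0.28 and -0.62 at 4 dpi. Its mean at 4 dpi was -0.53 ± 0.18 (SD, n = 4), with the smallest adjusted p of the 37 clones (0.00915 by limma). These 3 clones and mu type 3 were the 4 that passed without the limit, and each lost its call when 4 dpi replicate 2 or replicate 4 was left out, with adjusted p from 0.0219 to 0.0632.

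The 3 carriers tested had 4 dpi means from -0.08 to 0.33, and 0 of 3 were lower at 4 dpi by limma without the limit, where 2.10% of all features were, also by SAM, with a dye term or at an unadjusted p under 0.05. Every array of 4 dpi was above every array of 1 dpi in all 3, against 10.9% of all features, a description that holds the 1 dpi values that chose them. Apolipoprotein E (RNAB87), the main lipid carrier protein made by astrocytes, had log2 ratios of -0.86, -0.47 and -0.70 at 1 dpi and 0.49, -0.032, 0.90 and -0.038 at 4 dpi. The 4 dpi mean of 0.33 ± 0.45 (SD, n = 4) came from replicates 1 and 3, while replicates 2 and 4 were just below 0 (adjusted p = 0.188 by limma). Solute carrier family 15 member 2 (RNABJ09), the proton-coupled peptide transporter 2 of astrocytes and choroid plexus, had -1.39, -1.04 and -0.63 at 1 dpi and 0.26, 0.08 and 0.32 on 3 arrays of 4 dpi. All 3 were above 0, with a mean of 0.22 ± 0.12 (SD, n = 3) (adjusted p = 0.217 by limma).

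The brain digoxin carrier protein (RNABU18), an organic anion transporter of the blood-brain barrier, had -1.80, -1.47 and -0.76 at 1 dpi and 0.69, -0.44, -0.50 and -0.07 at 4 dpi. It was among the lowest clones at 1 dpi, and its 4 dpi mean of -0.08 ± 0.55 (SD, n = 4) had the largest spread of the 37 clones. Its values on both Cy5 arrays of 4 dpi lay below those on both Cy3 arrays. A selenium-binding protein tag (RNABL90) had -1.47 and -1.20 on 2 arrays of 1 dpi and -0.52 on the 1 array of 4 dpi that measured it. Phospholemman (RNABN45) and phospholamban (RGIAV16) are small membrane proteins that regulate the sodium pump and the calcium pump of the sarcoplasmic reticulum. Phospholemman went from -1.47, -0.76 and -0.55 at 1 dpi to 0.14, -0.11 and 0.017 on 3 arrays of 4 dpi, and phospholamban had -1.54 and -0.94 on 2 arrays of 1 dpi and -0.28 on 1 array of 4 dpi.

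Of the transcription factors, Dbp (RNABX44), the D site albumin promoter binding protein, whose mRNA cycles with the circadian clock, had log2 ratios of -1.81, -1.08 and -0.75 at 1 dpi and -0.18, -0.62, -0.62 and -0.40 at 4 dpi. All 4 arrays of 4 dpi were below 0 and above all 3 of 1 dpi, and the 4 dpi mean of -0.46 ± 0.21 (SD, n = 4) just missed the threshold (adjusted p = 0.0205 by limma). The nuclear receptor rCOUPg (RGIAK08), a repressor of the COUP-TF family, had -0.73, -0.78 and -0.56 at 1 dpi and 0.006, -0.33 and -0.20 on 3 arrays of 4 dpi (adjusted p = 0.339 by limma).

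For 24 of the 30 genes whose listed name was given a RefSeq symbol, the 250 bases before the gene start (RefSeq, build GRCr8) could be searched for 4 motifs. The motifs were the E-box of clock and bHLH factors, CACGTG, the D site, TTATGTAA or TTACGTAA, the cyclic AMP response element, TGACGTCA, and the antioxidant response element, TGACNNNGC, on both strands, and none of these strings contains another. The E-box was in 2 of the 24 genes (Slco1a4, the brain digoxin carrier, and Sycp3) and in 6.18% of all 27457 genes. The D site was in 0 of 24 and in 1% of all, the cyclic AMP response element in 1 (Cldn7) and 1.78%, and the antioxidant response element in 2 (Apoe and Ephx1) and 11%. A match is a string of letters and not a shown binding site. The promoters of a gene with a ratio below 0 on every array of 4 dpi and of 2 carriers with ratios on both sides of 0 are given 5′ to 3′ with the matched motif in capitals, the E-box of Slco1a4 from position -236 and the antioxidant response element of Apoe from -47 relative to the gene start, the latter read on the opposite strand, and with no match in Dbp.
Dbp, chr1:105312006-105312255, plus strand: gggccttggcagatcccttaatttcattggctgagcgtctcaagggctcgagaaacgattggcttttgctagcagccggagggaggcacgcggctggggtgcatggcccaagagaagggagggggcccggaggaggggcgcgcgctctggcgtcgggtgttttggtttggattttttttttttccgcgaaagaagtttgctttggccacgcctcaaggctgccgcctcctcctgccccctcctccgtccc
Slco1a4, chr4:176495847-176496096, minus strand: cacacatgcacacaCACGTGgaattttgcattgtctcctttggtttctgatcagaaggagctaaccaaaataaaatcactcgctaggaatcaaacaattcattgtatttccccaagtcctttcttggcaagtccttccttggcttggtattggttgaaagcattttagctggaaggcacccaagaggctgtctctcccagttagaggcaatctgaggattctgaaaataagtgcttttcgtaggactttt
Apoe, chr1:88485817-88486066, minus strand: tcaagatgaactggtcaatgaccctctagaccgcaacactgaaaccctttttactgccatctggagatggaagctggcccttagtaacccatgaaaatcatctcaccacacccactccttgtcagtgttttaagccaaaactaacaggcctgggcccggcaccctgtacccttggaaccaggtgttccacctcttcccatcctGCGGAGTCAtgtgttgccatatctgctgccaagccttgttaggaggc

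The 4 signalling clones listed for 1 dpi and tested at 4 dpi had means below 0 there, from -0.43 to -0.25. By limma without the limit 0 of 4 were lower, where 2.10% of all features were, with 1 by SAM (5.30%), 1 with a dye term (4.17%) and 3 at an unadjusted p under 0.05 (13.4%). MEKK1 (RNABI85), a kinase at the head of the JNK cascade, had -1.23, -0.72 and -0.62 at 1 dpi and -0.25, -0.62, -0.54 and -0.31 at 4 dpi (adjusted p = 0.0217 by limma). The G protein subunit beta 1 (RGIBA64) had -0.73, -0.93 and -0.86 at 1 dpi and -0.41, -0.14, -0.89 and -0.09 at 4 dpi, and replicate 3 of 4 dpi was lower than 2 of the 3 arrays of 1 dpi. The alpha 1 subunit of soluble guanylyl cyclase (RNABL61), the receptor of nitric oxide, had a 4 dpi mean of -0.26 ± 0.22 (SD, n = 4) after -1.05 at 1 dpi. Edg-1 (RGIAW49), a receptor of sphingosine 1-phosphate on vessel and glial cells, had -0.25 ± 0.34 (SD, n = 4) after -1.05. The delta subunit of the GABA-A receptor (RNABY14), which mediates tonic inhibition in neurons, had -1.43, -0.66 and -1.25 at 1 dpi and -0.82 on the 1 array of 4 dpi that measured it. That single value lay within its 1 dpi range.

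The secreted and immune clones held the chemokine stromal cell-derived factor-1 gamma, fibrinogen-like protein 2, C10 and an RT1 class Ib antigen. The stromal cell-derived factor-1 gamma tag (RNABQ38) had -1.98, -1.39 and -0.74 at 1 dpi, the widest spread of all listed clones there, and -0.76 and -0.49 on replicates 2 and 4 of 4 dpi. Fibrinogen-like protein 2 (RGIAL68), named for its likeness to fibrinogen chains, had -0.22, -0.35, -0.61 and -0.27 at 4 dpi, all below 0, with a mean of -0.36 ± 0.18 (SD, n = 4) (adjusted p = 0.038 by limma). C10 (RGIAI44) had a 4 dpi mean of -0.043 ± 0.21 (SD, n = 4) after -0.68 at 1 dpi. RT1 class Ib (RGIBC16), a nonclassical class I antigen of the rat, had -1.34, -1.19 and -0.77 at 1 dpi and -0.19 and -0.041 on 2 arrays of 4 dpi.

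Among the membrane, adhesion and other clones, annexin A7 (RNABA70), a calcium-dependent membrane binding protein, had -1.95, -1.12 and -1.10 at 1 dpi and -0.19, -0.52 and -0.92 on 3 arrays of 4 dpi. Its 4 dpi mean of -0.54 ± 0.37 (SD, n = 3) was the second lowest of the 37 clones and did not pass (adjusted p = 0.0442 by limma), although without replicate 1, where the ratio was nearest to 0, it did (mean -0.72, adjusted p = 0.00955). Without replicate 4 the mean was -0.35 (adjusted p = 0.232 by limma), and without replicate 2 it was -0.55 (adjusted p = 0.121). N-copine (RNABY95, a tag), a calcium-dependent protein of neurons, had -1.30, -0.83 and -0.43 at 1 dpi and 0.013, -0.63, -0.95 and 0.033 at 4 dpi. Its 4 dpi values split by dye, near 0 on both Cy3 arrays and well below 0 on both Cy5 arrays. Claudin-7 (RNACE16, a tag), named for a tight junction protein of epithelia, had -1.78 and -1.11 on 2 arrays of 1 dpi and -0.38 on 1 array of 4 dpi.

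Carbonic anhydrase-related protein 2 (RGIAK66) had the most even ratios of 4 dpi among the clones with 4 values, -0.35, -0.46, -0.32 and -0.36, after -0.44, -0.74 and -0.95 at 1 dpi (adjusted p = 0.0215 by limma). The synaptonemal complex protein 3 tag (RGIBB48), named for a protein of meiotic chromosomes, had -0.90, -0.75 and -0.56 at 1 dpi and 0.43, 0.08 and 0.06 on 3 arrays of 4 dpi, a 4 dpi mean of 0.19 ± 0.21 (SD, n = 3) with all values above 0 (adjusted p = 0.318 by limma). Without 4 dpi replicate 1 this mean was 0.071. The hypothetical protein FLJ10134 (RGIBA74) had a 4 dpi mean of 0.19 ± 0.32 (SD, n = 4), and the oligodendrocyte-myelin glycoprotein tag (RNACB85), an inhibitor of axon growth, -0.014 ± 0.21 (SD, n = 4).

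The 11 unknown clones listed for 1 dpi included RGIAX45, the second lowest at 1 dpi with -1.66, -1.92 and -1.08, which had -1.14 on the 1 array of 4 dpi that measured it, the lowest 4 dpi value of that array among the 51 clones. The 6 tested at 4 dpi had means from -0.42 to 0.06, with 0 of 6 lower by limma without the limit, where 2.10% of all features were, 1 by SAM (5.30%), 1 with a dye term (4.17%) and 3 at an unadjusted p under 0.05 (13.4%). RNABC03 had every 4 dpi value above its 1 dpi values, -1.67, -0.91 and -1.06 at 1 dpi and 0.33, 0.08, 0.13 and -0.33 at 4 dpi. This held for 4 of the 6, against 10.9% of all features, and the 1 dpi values chose them.

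**Figure D3:**
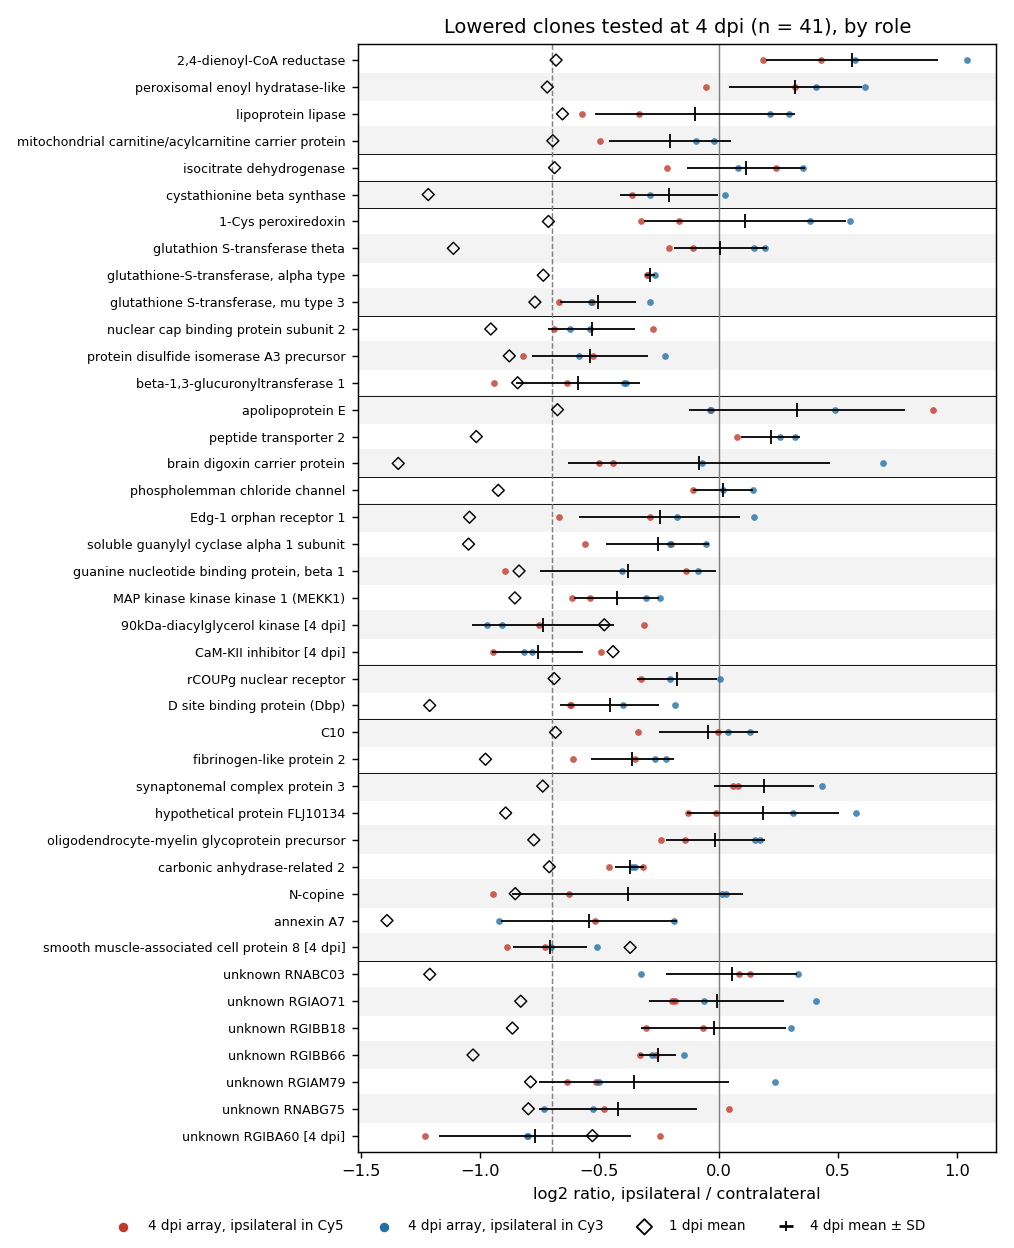
Log2 ratio at 4 dpi (horizontal axis) for the 41 tested clones, ordered by role (horizontal lines part the roles). Points are arrays coloured by the dye of the ipsilateral RNA, black marks with bars are the mean ± SD over 3 or 4 arrays, open diamonds are 1 dpi means and [4 dpi] marks the clones listed for 4 dpi. The means of the carriers lie near or above 0, and those of nuclear cap binding protein subunit 2, protein disulfide isomerase A3 and beta-1,3-glucuronyltransferase 1 lie between -0.53 and -0.59.

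Among the 37 clones listed for 1 dpi, taken by the headings of the study's list, the median 4 dpi mean was 0.12 over 4 clones of transporters, channels and binding proteins, -0.15 over 12 of metabolism, -0.14 over 6 unknown, -0.32 over 4 of signalling and -0.36 over 7 miscellaneous clones. The heading medians at 1 dpi, over all clones of a heading listed for 1 dpi, ran in another order, -1.24 for transporters, -1.05 for signalling, -0.87 for miscellaneous, -0.86 for unknown and -0.75 for metabolism. These rest on 7, 5, 8, 11 and 14 clones, some without a 4 dpi test, so the medians of the days cover different clones. A 4 dpi mean at or above 0 was held by 48% of all features tested. It was held by 3 of 4 transporter clones, 5 of 12 of metabolism and 2 of 7 miscellaneous clones. Of the unknown clones 1 of 6 held it, and of signalling 0 of 4. Phospholamban, lysine-ketoglutarate reductase and the selenium-binding tag, transporter clones without a test, had 4 dpi means of -0.28, -0.044 and -0.52. The clones lower by limma without the limit were 3 of 12 of metabolism and the 1 listed under proteases and inhibitors, against 2.10% of all features. SAM and the dye term each gave this 1 clone, 3 of 7 miscellaneous clones, 1 of 4 of signalling, 1 of 6 unknown and 1 of 2 of transcription and translation as lower, with 4 of 12 of metabolism by SAM and 3 with the dye term, against 5.30% and 4.17% of all features. The medians over the transporter clones were 0.37, -0.069 and -0.010 on 4 dpi replicates 1, 2 and 4, with 4 clones each, and 0.20 on replicate 3, where only 2 of the clones had a value. Those over the 4 signalling clones were -0.15, -0.43 and -0.19 on replicates 1, 2 and 4 and -0.60 on replicate 3. The heading medians rest on few clones that share arrays, and the differences between headings were not tested. Several moved by over 1.5 times when an array was left out. For miscellaneous clones the median was -0.19 without 4 dpi replicate 3. For metabolism it was -0.24 without replicate 1, -0.039 without replicate 2 and -0.073 without replicate 3, and 0.0069 over clones with a value on all arrays. For unknown clones it was -0.24 without replicate 1, -0.26 over clones with a value on all arrays and -0.054 with clones on 2 of 4 arrays added. For transporters it was 0.077 without replicate 1, 0.18 without replicate 2 and 0.018 with clones on 2 of 4 arrays added.

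The difference between the days, which holds the arrays that chose the clones, is a description. The median difference of 4 dpi minus 1 dpi over the 37 clones was 0.77. Every array of 4 dpi was above every array of 1 dpi in 26 of the 37, where 10.9% of all 3188 features tested on both days were. In 1 limma fit of all 7 arrays, 19 of the 37 were higher at 4 dpi at an adjusted p of 0.05 or less, where 3.48% of all features were, and 0 were lower. The count was 5 without 1 dpi replicate 1, 7 without 1 dpi replicate 2, 11 without 4 dpi replicate 1 and 8 without 4 dpi replicate 4. The largest differences among the tested clones were those of RNABC03 (1.27), the brain digoxin carrier (1.26), 2,4-dienoyl-CoA reductase (1.24) and peptide transporter 2 (1.23). Across the 37 clones the 1 dpi and 4 dpi means had a Pearson's r of 0.26 and a Spearman's rho of 0.30, against 0.56 and 0.44 across all 3188 features. Clones share arrays and were chosen by their 1 dpi values, which narrows their range, so these are descriptions.

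The 4 clones listed for 4 dpi had lower means at 4 dpi than at 1 dpi. Their 4 dpi means, which chose them, were -0.77, -0.76, -0.74 and -0.71, and the call covered 4 of 4, against 0.376% of all features, which restates the listing. Their 1 dpi means lay between -0.53 and -0.37, and 0 of 4 were called lower at 1 dpi by limma, where 1.51% of all features were, or by SAM (1.66%). Without the limit 0 of 4 passed by limma (adjusted p from 0.0257 to 0.0664), where 2.75% of all features did, and 1 of 4 with a dye term (5.06%). The listing for 4 dpi alone already means that the study did not list them at 1 dpi, so these counts of 0 are partly set by the list. In the fit of all 7 arrays 0 of the 4 were lower at 4 dpi than at 1 dpi, where 1.51% of all features were. SAM without the limit gave 3 of the 4 as lower at 1 dpi, and 5.59% of all features, and all 12 of their 1 dpi values were below 0. The calcium/calmodulin-dependent kinase II (CaM-KII) inhibitor tag (RNACA04), named for a brain protein that binds and blocks this synaptic kinase, had -0.74, -0.09 and -0.51 at 1 dpi (adjusted p = 0.0664 by limma) and -0.81, -0.49, -0.94 and -0.78 at 4 dpi. The 90kDa-diacylglycerol kinase (RNABL04), which turns the messenger diacylglycerol into phosphatidic acid, had -0.73, -0.32 and -0.39 at 1 dpi (adjusted p = 0.0336 by limma) and -0.91, -0.31, -0.75 and -0.97 at 4 dpi.

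Smooth muscle-associated cell protein 8 (RNABZ09) had -0.40, -0.28 and -0.44 at 1 dpi, the most even of the 4, and -0.51, -0.73, -0.89 and -0.70 at 4 dpi, so that every array of 4 dpi was lower than every array of 1 dpi (adjusted p = 0.0636 at 1 dpi by limma). The unknown clone RGIBA60 had -0.44, -0.33 and -0.82 at 1 dpi (adjusted p = 0.0257 by limma) and -0.80, -0.25, -1.23 and -0.80 at 4 dpi, with replicate 2 of 4 dpi above all 3 arrays of 1 dpi. The ranges of the days overlapped in all but smooth muscle-associated cell protein 8, so 1 of 4 had every array of 4 dpi, the day that chose it, below every array of 1 dpi, against 9.07% of all features. At 4 dpi, 0 of the 4 were called without replicate 3, 2 without replicate 4, 3 without replicate 1 and 4 without replicate 2. Of these 7 lost calls some missed only the limit on the mean, as the CaM-KII inhibitor (RNACA04) did without replicate 3 (mean -0.696, adjusted p = 0.00799 by limma), and some the adjusted p, as RGIBA60 did without replicate 4 (mean -0.76, adjusted p = 0.0384).

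The clones listed as raised at 1 dpi were also nearer to 0 at 4 dpi. Of 78 such clones tested on both days, listed for 1 dpi or for both days, 65 had a 4 dpi mean nearer to 0 than their 1 dpi mean, and their median went from 0.94 to 0.39. A mean beyond 0.7 was held by 64 of the 78 at 1 dpi and by 25 at 4 dpi, against 30 and 0 of the 37 lowered clones. At 4 dpi 10 of the 78 raised clones had a mean below 0, and 11 of the 37 lowered clones had one above 0. At 1 dpi 76 of the 78 raised clones had a mean at or above 0 and 2 had one below it. The 10 are therefore not a count of changed signs. The raised list holds clones that the study listed on both days, which the lowered list does not, so the 2 lists are not matched, and the difference was not tested. Both lists were chosen by 1 dpi values, which partly sets a 4 dpi mean nearer to 0.

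Among the lowered clones are genes that mark cell types, and no difference between these lists was tested. The neuron list (the GABA-A receptor delta subunit, N-copine and the CaM-KII inhibitor) was below 0 in 3 of 3 clones on both days, with array means from -1.15 to -0.52 at 1 dpi and from -0.95 to -0.37 at 4 dpi. At 4 dpi these means rest in part on the CaM-KII inhibitor, which was chosen by its 4 dpi values, as N-copine was at 0.013 and 0.033 on replicates 1 and 4 and the GABA-A receptor delta subunit had 1 value. The astrocyte list had 4 of 5 clones with values (cystathionine beta synthase, Edg-1, apolipoprotein E and peptide transporter 2, of which Edg-1 is also made by vessel cells), 4 of 4 below 0 at 1 dpi with array means from -1.29 to -0.74, and 2 of 4 below 0 at 4 dpi with array means from -0.15 to 0.23. The vessel list was the brain digoxin carrier alone and the oligodendrocyte list oligodendrocyte-myelin glycoprotein alone. All but the CaM-KII inhibitor were chosen by their 1 dpi values. These lists hold lowered clones only, so a raised gene of the same cell types could not enter them.

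Markers of phagocytes, all from the raised list and so above 0 by choice, had higher array means at 4 dpi than at 1 dpi. The raised list also holds clones listed for their 4 dpi values. Macrophage expressed gene 1 had a 1 dpi mean of 0.42 (adjusted p = 0.0949 by limma). The rise can thus be partly set by the choice, and it was not tested. The 5 clones (C1q beta chain, C1q C chain, osteoactivin, macrophage expressed gene 1 and class III Fc gamma receptor) were above 0 in 5 of 5 on both days, with array means from 0.65 to 0.91 at 1 dpi and from 1.19 to 2.12 at 4 dpi. Osteoactivin, a glycoprotein of activated phagocytes, was the highest, at 1.36 ± 0.55 (SD, n = 3) at 1 dpi and 3.34 ± 0.63 (SD, n = 4) at 4 dpi. The part of cells entering the tissue in the ratios of the lowered clones was not tested.

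**Figure D4:**
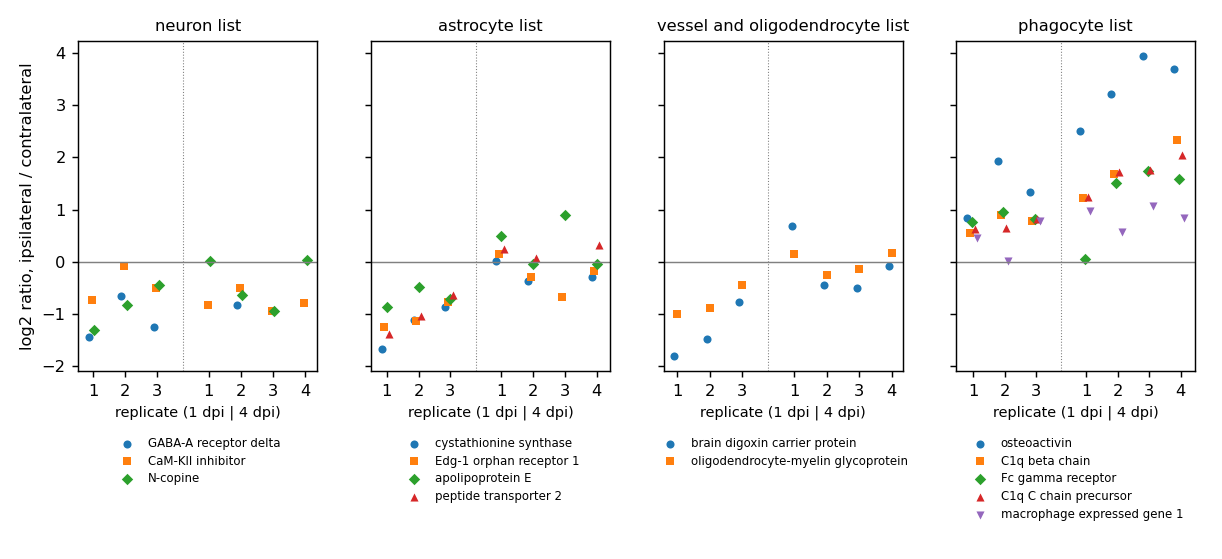
Log2 ratio of ipsilateral to contralateral cortex (vertical axis) for clones of neurons, astrocytes, vessels with oligodendrocytes, and phagocytes on each replicate of 1 dpi (left of the dotted line) and 4 dpi (right). Each marker is 1 clone on 1 array, with the 3 replicates of 1 dpi and the 4 of 4 dpi. The astrocyte clones lie below 0 at 1 dpi and around 0 at 4 dpi, and the phagocyte clones lie above 0 throughout.

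Clones whose IDs begin with the same letters were taken as 1 plate, which the labels do not state. The lowered clones were spread over 36 of 65 such plates, with at most 4 on a plate (of up to 96 features). Only 2 pairs had neighbouring numbers, cystathionine beta synthase with the brain digoxin carrier and mu type 3 with MEKK1. The unlisted features numbered next to clones listed for 1 dpi, 76 tested, had a median 1 dpi mean of -0.084 against 0.0087 for all features, and 1 of the 76 was called lower. Each array had a value for between 34 and 55 of the lowered clones and for between 2332 and 5208 of the 6240 features, the fewest on 4 dpi replicate 3.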

How the data were processed

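The 7 arrays, 1 for each rat, were grouped by the day and replicate in their titles. The deposited log2 ratios of injured over uninjured cortex were made by the authors from spot intensity less background, with dye swaps turned, Lowess within each array, and empty or weak spots (under 2 times background) removed. The number of arrays limits the precision. The p-values measure the spread between arrays, in which animal, dye orientation and hybridisation are mixed.

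Clones were matched by ID, with the number padded to 2 digits, and every matched ID with a value was checked against the listed values. Means were tested against 0 per day with limma 3.58.1 (R 4.3.3) and Benjamini-Hochberg adjustment over all features measured on 2 of 3 arrays (1 dpi) or 3 of 4 (4 dpi). The difference between days came from 1 fit of 7 arrays. limma stood in for the SAM of the methods, which was run as an alternative with missing cells filled from 10 neighbours. Other alternatives were the thresholds, a dye term, centring, scaling, the arrays required, robust eBayes, 1 fit of both days, the replicate number as a block, medians and leaving out each array. Figures were drawn with matplotlib 3.10.9. The members, roles and lists were chosen with earlier results of these data known. The text names every clone with a listed name, and gives every array for the 5 lowest and 5 highest at 4 dpi, the 5 lowest at 1 dpi, those listed for 4 dpi and those lower there, and for others chosen after their values were seen. Tested on simulated data with 200 features lowered by 1.5, limma recovered 79% of them at 1 dpi among 4952 features and 99.5% at 4 dpi among 3191. SAM recovered 96.5% at 1 dpi and 99.5% at 4 dpi.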

Additional observations from a re-analysis of the deposited data

Results flagged for a closer look

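The unknown clone RGIAM79, listed for 1 dpi, had 1 array of 4 dpi far from the others. Its log2 ratio was 0.238 on replicate 1, and -0.64, -0.51 and -0.50 on replicates 2, 3 and 4, so that the gap took 0.845 of its whole range, above the critical value of Dixon's test for 4 values. It was the 1 clone of 32 with 4 values at 4 dpi for which this held, and chance gives about 1 in 20. The cause was not tested.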

How the results depend on the processing

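The count of 0 called lower at 4 dpi among the clones listed for 1 dpi held under the alternatives run, except that it was 1 (annexin A7) without 4 dpi replicate 1. The 4 clones listed for 4 dpi were called under all alternatives but those given here. Without the limit on the mean, 8 clones were lower at 4 dpi, 4 of them listed for 1 dpi. These counts were 15 and 11 with SAM, 13 and 9 at an adjusted p of 0.05, and 14 and 10 with a dye term, and ranged from 2 to 11 and from 0 to 7 when single arrays were left out. A limit of 0.7 on every array left 20 clones called at 1 dpi, in place of 43, and 0 at 4 dpi, in place of 4. Leaving out single arrays gave 27 to 44 calls at 1 dpi and 0 to 4 at 4 dpi (0 to 1 of those listed for 1 dpi and 0 to 4 of those listed for 4 dpi), and a median for the miscellaneous heading from -0.38 to -0.19.

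The clones higher at 4 dpi than at 1 dpi numbered 19, and 9 at an adjusted p of 0.02 and 5 to 22 without single arrays. With the replicate block they numbered 9. Same-numbered arrays of the days came from different animals, so the numbers do not pair them. The correlations of their deviations from the day means were -0.17, 0.098 and -0.27. These cannot decide on pairing, since the dye orientation of replicates 1 and 3 differed between the days. Between arrays of the same dye orientation the correlations ran from -0.098 (1 dpi replicate 1 with 4 dpi replicate 3) to 0.40, and between arrays of opposite orientation from -0.36 to -0.025.

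The median 4 dpi mean of the 37 clones stayed below 0 throughout, from -0.29 without 4 dpi replicate 1 to -0.098 without replicate 2, and the number at or above 0 ran from 8 to 16. Centring moved it to -0.20 and scaling to -0.24. With 3 or 4 arrays, shifts smaller than the simulated 1.5 may be missed, and a missing spot on an array lowers the number of values per clone. The cause of these changes was not tested.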
